A study of Homo sapiens with 8 samples.

Results

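The miR-23, miR-27 and miR-24 clusters are a pair of paralogous microRNA (miRNA) loci, of which the a cluster on chromosome 19 encodes the hairpins of miR-23a, miR-27a and miR-24-2 and the b cluster on chromosome 9 encodes those of miR-23b, miR-27b and miR-24-1. Members were taken by name, as every mature miRNA of these miR-23, miR-27 and miR-24 hairpins listed in the count table, and were hsa-miR-23a-3p, hsa-miR-23a-5p, hsa-miR-23b-3p, hsa-miR-23b-5p, hsa-miR-27a-3p, hsa-miR-27a-5p, hsa-miR-27b-3p, hsa-miR-27b-5p, hsa-miR-24-3p and hsa-miR-24-2-5p. These were 10 of 3112 listed miRNAs, of which 1482 had names of known human miRNAs and 1630 were predicted. All 10 passed the filter on low counts and were among the 895 miRNAs tested, 463 of them known. hsa-miR-24-1-5p, the other arm of the miR-24-1 hairpin, was not listed.

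The libraries were made from 786-O cells (labelled 786O), an established human clear cell renal cell carcinoma (ccRCC) line, to look for miRNAs downstream of circSOD2, a circular RNA of the SOD2 gene. A negative control (NC) group and a group given a short hairpin RNA against circSOD2 (circSOD2-sh) had 4 libraries each. The labels describe plasmids delivered with Lipofectamine and RNA taken 48 h later, whereas the study's methods describe lentivirus followed by puromycin, and the hairpin sequence used is not named. Nothing states that the 4 libraries of a group came from separate cultures, so the p-values may measure technical spread, and the level of circSOD2 was not analysed here.

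The NC libraries held 9245044, 8960761, 8007172 and 6386872 counts for replicates 1 to 4, and the circSOD2-sh libraries held 3972143, 4208276, 3743860 and 3920678. Known miRNAs made up 36.2%, 39.9%, 41.9% and 36.7% of these counts in NC and 95.1%, 96.5%, 96.3% and 95.7% in circSOD2-sh. Levels are therefore given as normalized CPM, counts scaled to CPM with the library total corrected by the trimmed mean of M values (TMM), whose factors ran from 0.697 to 0.733 in NC and from 1.33 to 1.48 in circSOD2-sh. A count of 3, taken as the floor of detection, equalled from 0.46 up to 0.674 normalized CPM among NC libraries and from 0.51 up to 0.602 among circSOD2-sh libraries, counting error only. The choice of scaling matters to the levels: scaling by library totals moved the median log2 fold change of the 895 miRNAs from −0.0021 to 0.96, with 613 called higher and 158 lower in place of 298 and 290, and upper quartile scaling moved it to 0.83, with 570 higher and 160 lower. With relative log expression (RLE) size factors the median was −0.053, with 285 higher and 308 lower, and DESeq2 gave −0.048, with 277 higher and 295 lower, both near TMM. Fold changes below are those after TMM, and for each member that another scaling turned, a value relative to the median of all miRNAs is given. A change of scaling moves all miRNAs by nearly the same amount, so these relative values agree between scalings by construction. They cannot show which scaling or direction is right. Ratios between members of the same library depend on scaling only through a small added constant.

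Hairpins of each locus are excised by Drosha from a shared primary transcript and trimmed by Dicer to a duplex, from which the guide arm is loaded into Argonaute while the passenger arm is mostly degraded. The 3p arms of miR-23, miR-27 and miR-24 are the usual guides, and a guide recognises its targets chiefly through its seed, bases 2 to 8. The clusters are known from endothelial cells and vessel growth, from adipocyte differentiation and from T cells, and their members are frequently altered in carcinomas.

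The mature sequences of the members are shown because the a and b products can be told apart only by these bases, and because a shared seed means a largely shared set of predicted targets. All 10 of the 10 members matched an entry of the RefSeq table (build GRCh38.p14), from which the sequences were taken. They are printed 5′ to 3′ with the seed in capitals, grouped by shared seed, with the X-linked relative miR-23c beside the miR-23 guides.
hsa-miR-23a-3p: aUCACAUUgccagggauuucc
hsa-miR-23b-3p: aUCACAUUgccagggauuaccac
hsa-miR-23c: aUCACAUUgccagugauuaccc
hsa-miR-27a-3p: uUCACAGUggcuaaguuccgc
hsa-miR-27b-3p: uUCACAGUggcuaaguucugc
hsa-miR-24-3p: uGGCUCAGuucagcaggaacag
hsa-miR-24-2-5p: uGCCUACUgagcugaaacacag
hsa-miR-23a-5p: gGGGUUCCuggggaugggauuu
hsa-miR-23b-5p: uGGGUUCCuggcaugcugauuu
hsa-miR-27a-5p: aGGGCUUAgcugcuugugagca
hsa-miR-27b-5p: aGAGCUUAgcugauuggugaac

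With positions counted from 1 at the 5′ end, miR-23a-3p and miR-23b-3p were identical at 20 of 21 compared positions and differed by U19A, with miR-23b-3p 23 bases long against 21. miR-27a-3p and miR-27b-3p were both 21 bases long and differed by C19U alone. miR-23c differed from miR-23a-3p by G14U and U19A and from miR-23b-3p by G14U and A22C. The passenger arms were less alike, at 15 of 22 positions for miR-23a-5p and miR-23b-5p, which share a seed, and 14 of 22 for miR-27a-5p and miR-27b-5p, whose seeds differ by G3A. Among the 1298 known miRNAs of the table with a reference sequence, the miR-23 guide seed was found in those 3 miRNAs, the miR-27 guide seed in both miR-27 guides, the miR-23 passenger seed in both miR-23 passengers, and each remaining member's seed in that member alone. Since the guides of a pair differ near the 3′ end by a single internal base, a read that ends early could be counted for either, and the counting tool is not given in the sources used here. How reads were divided between miR-23a-3p and miR-23b-3p, or between miR-27a-3p and miR-27b-3p, is thus uncertain. hsa-miR-24-3p is the same 22 bases from either locus, so its counts cannot be assigned to a cluster.

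On GRCh38.p14 the a cluster lies on the minus strand of chromosome 19, with MIR23A at 13836587 to 13836659, MIR27A at 13836440 to 13836517 and MIR24-2 at 13836287 to 13836359. The gaps between these hairpins are 69 and 80 bases, the whole spans 373 bases, and all 3 fall within an exon of the non-coding gene AC020916.1 of the same strand (GENCODE 29, host of the cluster). The b cluster lies on the plus strand of chromosome 9, with MIR23B at 95085208 to 95085304, MIR27B at 95085445 to 95085541 and MIR24-1 at 95086021 to 95086088. Its gaps are 140 and 479 bases and it spans 881 bases. MIR23B and MIR27B are intronic in C9orf3, whereas MIR24-1 overlaps an exon of 1 C9orf3 transcript.

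The libraries were first examined for markers of cell types. Epithelial markers, led by hsa-miR-200b-3p, summed to 3788, 4110, 4475 and 4043 normalized CPM in NC replicates 1 to 4 and to 3311, 3428, 3675 and 3349 in circSOD2-sh, and all 3 were called lower by edgeR after TMM, hsa-miR-200b-3p at a log2 fold change of −0.25 that turned to 0.72 with library totals and 0.59 with the upper quartile. hsa-miR-141-3p was also called lower with library totals (−1.38, adjusted p = 0.0282 in edgeR) and the upper quartile (−1.46, adjusted p = 0.0123), and hsa-miR-200c-3p was at −0.53 and −0.61 without a call. Both stood highest in NC replicate 4, at 25.4 and 32.6 normalized CPM against at most 8.47 and 12.1 in the other NC libraries. Kidney tubule markers, led by hsa-miR-192-5p, summed to 362, 388, 389 and 1046 in NC and to 291, 340, 299 and 295 in circSOD2-sh, and hsa-miR-192-5p was lower after TMM (log2 fold change −0.87, but 0.11 with library totals and 0.026 with the upper quartile), NC replicate 4 alone reaching 953 normalized CPM and NC replicates 1 to 3 lying at 335 to 361. The tubular hsa-miR-204-5p had 1, 0, 0 and 4 counts in NC and 9, 164, 7 and 7 in circSOD2-sh, too few for the test. The hypoxia-responsive hsa-miR-210-3p stood at 26.996, 24.02, 19.95 and 22.03 in NC and at 13.9, 19.8, 15.05 and 15.3 in circSOD2-sh, and was called lower after TMM (log2 fold change −0.54, adjusted p = 0.015 in edgeR) but higher with library totals (0.43, adjusted p = 0.0296). The markers that led the epithelial and tubular lists were thus present in all 8 libraries.

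NC replicate 4 and circSOD2-sh replicate 2 stood apart from the rest in markers of cells that the line should not hold. Endothelial markers, led by hsa-miR-126-3p, summed to 345, 348, 334 and 651 in NC and to 267, 511, 262 and 290 in circSOD2-sh, of interest because the miR-23, miR-27 and miR-24 clusters are also abundant in endothelium. Fibroblast and smooth muscle markers, led by hsa-miR-143-3p, summed to 537 in NC replicate 4 and 219 in circSOD2-sh replicate 2 against 7.08 to 12.4 in the other libraries. Neuronal markers, led by hsa-miR-124-3p, summed to 4069 in circSOD2-sh replicate 2 against 27.02 to 37.1 elsewhere. Fibroblast miRNAs thus stood out in both libraries and neuronal miRNAs in circSOD2-sh replicate 2 alone. Erythroid markers, led by hsa-miR-451a, summed to 113 and 38.7 in NC replicate 4 and circSOD2-sh replicate 2 and to at most 23.5 elsewhere. Leukocyte markers, led by hsa-miR-142-5p, reached 17.1 and 14.7 in the same libraries against at most 3.21 elsewhere, and 3 of the 4 were at or under the floor in at least 6 libraries. Muscle markers, led by hsa-miR-1-3p, ran from 9.38 to 41.1, the highest sum being that of NC replicate 4 with 108 counts of hsa-miR-206 against at most 2 elsewhere, and the liver marker hsa-miR-122-5p from 1.36 to 5.83. By edgeR after TMM, hsa-miR-124-3p was called higher, hsa-miR-1-3p higher (though not with RLE size factors, adjusted p = 0.0591) and hsa-miR-122-5p lower (though not with library totals, adjusted p = 0.387, or the upper quartile, adjusted p = 0.219), while hsa-miR-133a-3p was at −0.12 without a call. No marker of these lists was at 0 in all libraries. Results for the members are therefore also given without these 2 libraries where their call or direction differs, and the part of other cells' RNA in the members' levels was not tested beyond that.

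The clusters did not move as a unit after circSOD2-sh. After TMM miR-23a-3p rose 14-fold while its own passenger arm fell 8.65-fold, miR-27a-3p was lower and its passenger arm rose 2.71-fold, and miR-24-3p, shared by both loci, was not called. In the b cluster the change largest in size was the 2-fold rise of miR-23b-3p, and its other members were within 0.47 log2 units of 0 after TMM. The sizes of these changes depended on the scaling, and for miR-27a-3p so did the direction. miR-27a-3p was called higher with library totals (log2 fold change 0.35, adjusted p = 0.000724 in edgeR), as was miR-24-3p (0.85, adjusted p = 1.18e-05). With library totals the log2 fold changes were 4.77 for miR-23a-3p, −2.14 for miR-23a-5p, 2.41 for miR-27a-5p and 1.97 for miR-23b-3p. After TMM they were 3.81, −3.11, 1.44 and 1.00 in the same order. In all, 7 of the 10 members passed an adjusted p of 0.05 in edgeR, 3 higher and 4 lower, against a background of 65.7% of all 895 miRNAs in either direction, 33.3% higher and 32.4% lower. The split was also 3 and 4 with RLE size factors and with DESeq2, but 9 members were called higher and 1 lower with library totals, and 7 higher and 1 lower with the upper quartile. The libraries of the groups did not overlap for 7 of the 10 members, against 60.3% of all miRNAs, and for each of these 7 the exact two-sided permutation p was 0.0286, the smallest that 4 against 4 libraries can give. The members' share of calls was thus near that of the whole table. Their median log2 fold change was −0.10 and their median absolute change 0.587, compared with −0.0021 and 0.81 over all miRNAs tested and −0.11 and 0.506 over the 463 known. Since these are bulk libraries, fewer cells with a miRNA and less of it per cell cannot be told apart.

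**Figure D1:**
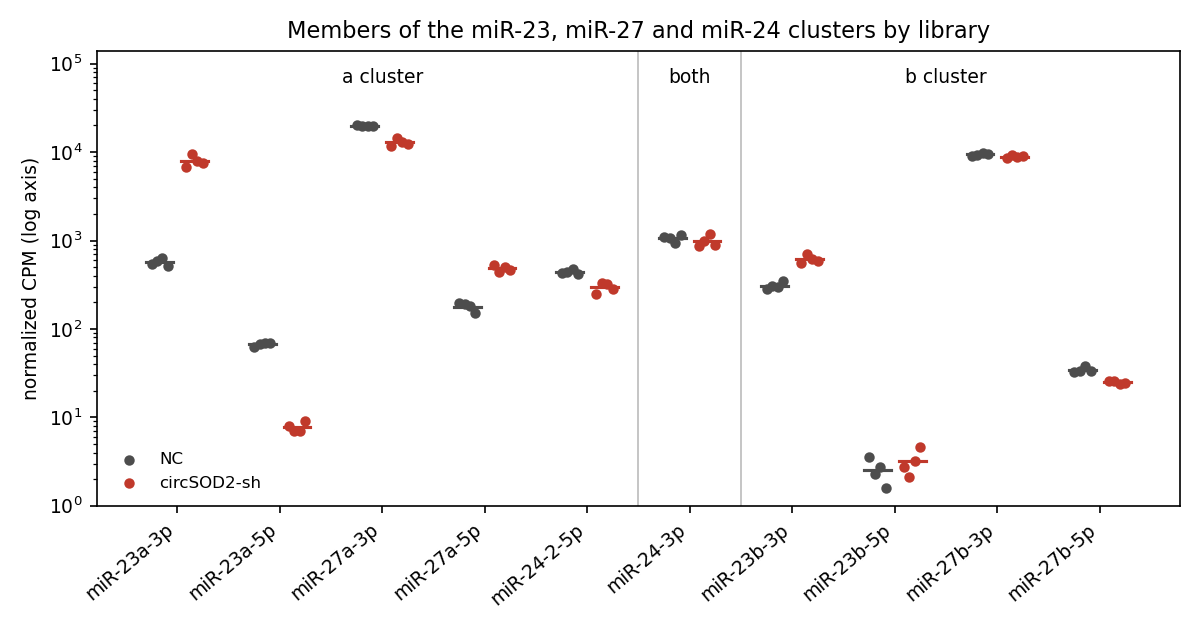
Normalized CPM (log axis) of the 10 members in each of 4 NC and 4 circSOD2-sh libraries, points being libraries and lines group means, grouped by cluster. miR-23a-3p spans 513 to 626 across the NC libraries but 6784 to 9552 across the circSOD2-sh libraries, whereas miR-23a-5p drops from 62.4 or more to 9.07 or less.

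Counts assigned to both guides of the miR-23 family rose, those of the a copy far more than those of the b copy. hsa-miR-23a-3p, the most studied guide of the family, was at 546, 586, 626 and 513 normalized CPM in NC and at 6784, 9552, 7998 and 7469 in circSOD2-sh. The highest value came from circSOD2-sh replicate 2, and the groups lay an order of magnitude apart. Its mean went from 568 ± 49.0 to 7951 ± 1178 (SD, n = 4), a log2 fold change of 3.81 (SE 0.12, adjusted p = 2.43e-09 in edgeR), and the value was 3.56 without NC replicate 4 and circSOD2-sh replicate 2. This was the change ranked 21 from the top among the 463 known miRNAs tested. By level, miR-23a-3p moved from rank 64 to rank 18 among 1482 known miRNAs.

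hsa-miR-23b-3p, its counterpart from chromosome 9 with the same seed, was at 283, 306, 296 and 348 normalized CPM in NC and at 553, 713, 611 and 591 in circSOD2-sh. All 4 circSOD2-sh libraries exceeded all 4 NC libraries. Its mean rose from 308 ± 28.2 to 617 ± 68.3 (SD, n = 4), a log2 fold change of 1.00 (SE 0.11, adjusted p = 1.54e-05 in edgeR). Whether part of this rise came from miR-23a-3p reads counted for miR-23b-3p was not tested. The summed miR-23 guides rose 9.78-fold after TMM, from 876 ± 39.6 to 8567 ± 1246 (exact two-sided permutation p = 0.0286), and 17.2-fold by deposited CPM. If each read was counted once, this sum does not depend on how reads were split between both copies, which was not tested. Elsewhere in the table, 3 a/b pairs had identical counts in all 8 libraries.

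The guides of the miR-27 family were the most abundant members in either group, and only the a copy was called changed after TMM. hsa-miR-27a-3p, a guide known for its part in lipid metabolism and cell growth, was at 20082, 19675, 19670 and 19519 normalized CPM in NC and at 11848, 14517, 12899 and 12338 in circSOD2-sh. The 4 NC libraries were tightly grouped and all lay above the circSOD2-sh libraries. Its mean went from 19736 ± 241 to 12901 ± 1160 (SD, n = 4), 1.53-fold lower. The log2 fold change was −0.61 (SE 0.072, adjusted p = 3.57e-05 in edgeR) after TMM. It turned to 0.35 with library totals (adjusted p = 0.000724) and 0.23 with the upper quartile (adjusted p = 0.0793). Relative to the median of all miRNAs it was −0.61 under each of these 3 scalings, which follows from the subtraction and does not decide the direction.

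hsa-miR-27b-3p, which shares its seed, was at 9030, 9377, 9698 and 9497 normalized CPM in NC and at 8554, 9164, 8816 and 8963 in circSOD2-sh. The ranges of the groups overlapped. The means were 9401 ± 280.3 and 8874 ± 257 (SD, n = 4), with a log2 fold change of −0.083 (SE 0.057, adjusted p = 0.223 in edgeR; exact permutation p = 0.0571) that turned to 0.88 with library totals and 0.76 with the upper quartile, and that relative to the median of all miRNAs was −0.081, −0.078 and −0.074 under TMM and these scalings. miR-27b-3p was called lower whichever circSOD2-sh library was left out, but not when an NC library was left out. Without circSOD2-sh replicate 1, 2, 3 or 4 the value was −0.19, −0.20, −0.23 or −0.20. The adjusted p was 0.0366, 0.017, 0.033 and 0.0344 in edgeR. These fits tested 969 or 970 miRNAs in place of 895, and the median of all miRNAs moved to −0.10, −0.15, −0.10 and −0.092. Without NC replicate 4 and circSOD2-sh replicate 2 together the value was −0.20 (adjusted p = 0.0245 in edgeR). With known miRNAs only it was −0.035, and 0.048 relative to their median. The summed miR-27 guides went from 29137 ± 159 to 21775 ± 1384 normalized CPM, 1.34-fold lower after TMM (exact two-sided permutation p = 0.0286) but 1.32-fold higher by deposited CPM.

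hsa-miR-24-3p, the guide encoded by both loci and known as a regulator of the cell cycle, was at 1094, 1055, 948 and 1148 normalized CPM in NC and at 865, 979, 1180 and 889.5 in circSOD2-sh. circSOD2-sh replicate 3 held the highest value of all 8 libraries, so that the groups overlapped. The means were 1061 ± 84.7 and 978 ± 143 (SD, n = 4), with a log2 fold change of −0.12 (SE 0.11, adjusted p = 0.376 in edgeR; exact permutation p = 0.371), which turned to 0.85 with library totals and 0.74 with the upper quartile and, relative to the median of all miRNAs, was −0.11, −0.12 and −0.097 under TMM and these scalings. Without circSOD2-sh replicate 3 it was −0.37 with an adjusted p of 0.00749 in edgeR. With known miRNAs only it was −0.075, and 0.009 relative to their median.

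Among the passenger arms, which are normally the minor product of their hairpins, those of the a cluster changed most. hsa-miR-23a-5p was at 62.4, 68.4, 68.7 and 69.9 normalized CPM in NC and at 7.99, 7.06, 7.02 and 9.07 in circSOD2-sh. These values rest on 311 to 444 counts per NC library and 35 to 51 counts per circSOD2-sh library. The mean fell from 67.4 ± 3.35 to 7.79 ± 0.966 (SD, n = 4), and the log2 fold change of −3.11 (SE 0.13, adjusted p = 1.74e-08 in edgeR) was the lowest of the 463 known miRNAs tested.

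hsa-miR-27a-5p went the other way, at 196, 189, 179 and 151 normalized CPM in NC and 523, 445, 499 and 468 in circSOD2-sh. The lowest circSOD2-sh library lay far above the highest NC library. The mean rose from 179 ± 20.05 to 484 ± 34.3 (SD, n = 4), a log2 fold change of 1.44 (SE 0.11, adjusted p = 9.95e-07 in edgeR).

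hsa-miR-24-2-5p, which reports on the chromosome 19 copy of miR-24 alone, was at 424, 439, 477 and 413 normalized CPM in NC and at 249, 335, 324 and 281 in circSOD2-sh. The groups did not overlap. Its means were 438 ± 28.0 and 297 ± 39.6 (SD, n = 4), with a log2 fold change of −0.56 (SE 0.11, adjusted p = 0.00131 in edgeR) after TMM, 0.40 with library totals and 0.28 with the upper quartile, and −0.56 relative to the median of all miRNAs under each of the 3.

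hsa-miR-27b-5p was at 32.2, 33.3, 38.4 and 33.5 normalized CPM in NC and at 25.5, 26.0, 23.7 and 24.2 in circSOD2-sh. The groups did not overlap, and the difference was close in size to that of miR-24-2-5p and small beside those of miR-23a-5p and miR-27a-5p. The means were 34.3 ± 2.75 and 24.8 ± 1.07 (SD, n = 4), with a log2 fold change of −0.47 (SE 0.12, adjusted p = 0.00562 in edgeR) that turned to 0.50 with library totals and 0.37 with the upper quartile and was −0.46 relative to the median of all miRNAs under each of the 3.

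hsa-miR-23b-5p, the least abundant member, had 7 to 23 counts per NC library and 12 to 26 per circSOD2-sh library. Its levels were 3.53, 2.31, 2.73 and 1.57 normalized CPM in NC and 2.72, 2.12, 3.21 and 4.62 in circSOD2-sh. The groups overlapped. After TMM the log2 fold change was 0.29 (SE 0.31, adjusted p = 0.423 in edgeR) and −0.061 (adjusted p = 0.881) without circSOD2-sh replicate 4. In that fit the median of the 969 miRNAs tested was itself −0.092. miR-23b-5p was called higher with library totals (1.26, adjusted p = 0.00361) and with the upper quartile (1.13, adjusted p = 0.00881), and was 0.29 relative to the median of all miRNAs under each of the 3.

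Counted by role, 1 of 2 guides of the a cluster was called higher and 1 lower, and 1 of its 3 passengers was higher and 2 lower. For the b cluster, 1 of 2 guides was higher and 1 was not called, and 1 of 2 passengers was lower and 1 was not called. Over all 895 miRNAs tested, 33.3% were called higher and 32.4% lower. Of the members called lower, only miR-23a-5p was also lower with library totals or the upper quartile. With library totals miR-27a-3p, miR-27b-5p and miR-24-2-5p were instead called higher (adjusted p = 0.000724, 0.006 and 0.00375 in edgeR). miR-27b-3p and miR-24-3p were called higher there too (adjusted p = 7.56e-07 and 1.18e-05). With the upper quartile miR-27b-5p, miR-27b-3p and miR-24-3p were called higher (adjusted p = 0.0481, 4.41e-05 and 0.000249), whereas miR-27a-3p and miR-24-2-5p were not called.

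**Figure D2:**
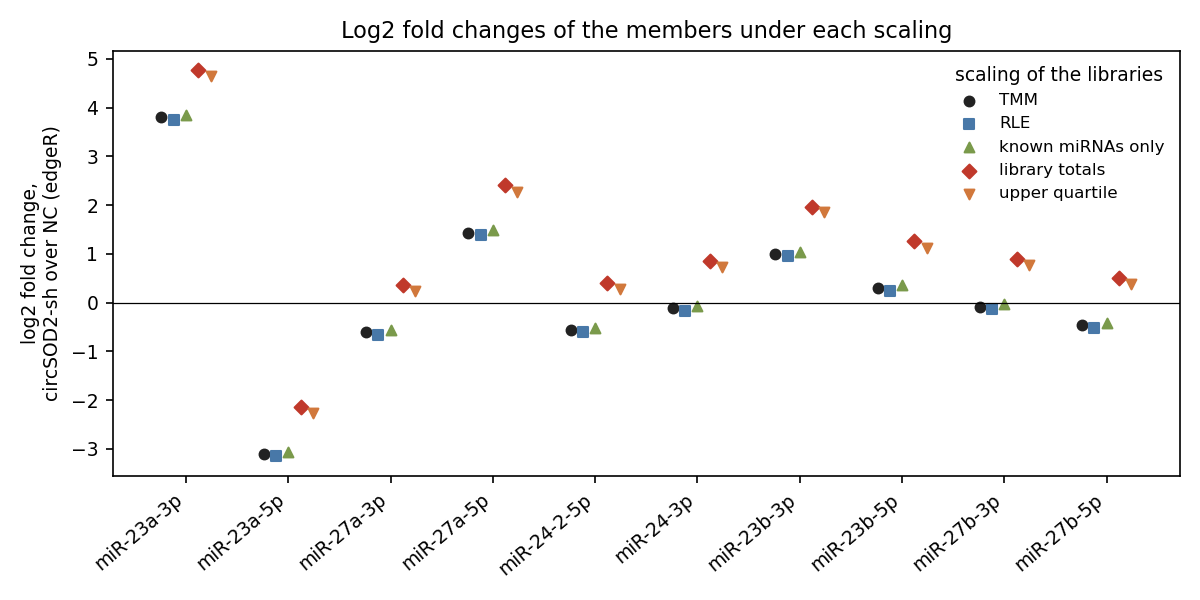
Log2 fold change (circSOD2-sh over NC, edgeR) of each member under 5 scalings of the libraries, marked by symbol. Library totals and the upper quartile move all members upward by a like amount, turning miR-27a-3p from −0.61 to 0.35 and 0.23, and likewise miR-24-2-5p, miR-24-3p, miR-27b-3p and miR-27b-5p, whereas miR-23a-3p, miR-27a-5p, miR-23b-3p and miR-23b-5p lie above 0 and miR-23a-5p below 0 under all 5.

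The order of the members' levels changed accordingly. As the mature sequences are of near-equal length, 21 to 23 bases, normalized CPM were compared between members directly, although ligation and amplification differ between sequences. In NC the order by mean level was miR-27a-3p, miR-27b-3p, miR-24-3p, miR-23a-3p, miR-24-2-5p, miR-23b-3p, miR-27a-5p, miR-23a-5p, miR-27b-5p and miR-23b-5p, and no neighbours overlapped in their ranges over 4 libraries. In circSOD2-sh it was miR-27a-3p, miR-27b-3p, miR-23a-3p, miR-24-3p, miR-23b-3p, miR-27a-5p, miR-24-2-5p, miR-27b-5p, miR-23a-5p and miR-23b-5p. There miR-27b-3p, at 8554 to 9164, and miR-23a-3p, at 6784 to 9552, were the only neighbours with overlapping ranges. Among known miRNAs, miR-27a-3p ranked 5 in NC and 9 in circSOD2-sh, miR-27b-3p 13 and 16, and miR-24-3p 50 and 53, whereas miR-23a-5p went from rank 145 to 317.

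Whether the summed products of a cluster changed depended on the scale, with no difference detected after TMM, lower sums in circSOD2-sh as a percent of the counts on known miRNAs and higher sums by deposited CPM. The 5 products assigned to chromosome 19 summed to 20989 ± 265 normalized CPM in NC and 21640 ± 2343 in circSOD2-sh (SD, n = 4; exact two-sided permutation p = 0.743), and the 4 products of chromosome 9 to 9746 ± 294 and 9519 ± 318 (exact two-sided permutation p = 0.314). All 10 members together gave 31796 ± 141 in NC and 32138 ± 2687 in circSOD2-sh (exact two-sided permutation p = 0.886). A p above the threshold does not show that these sums were equal. As a percent of the counts on known miRNAs the a cluster made up 3.89% ± 0.201 in NC and 3.14% ± 0.218 in circSOD2-sh, the b cluster 1.80% ± 0.055 and 1.39% ± 0.058, and all 10 members 5.89% ± 0.26 and 4.67% ± 0.221. On this scale the groups did not overlap for any of the 3 sums. By deposited CPM, in contrast, the a cluster summed to 14047 ± 371 in NC and 25581 ± 1927 in circSOD2-sh, the b cluster to 6523 ± 277 and 11277 ± 369, and all 10 members to 21280.1 ± 505 and 38014 ± 1966 (SD, n = 4), again without overlap. In normalized CPM the spread of the a cluster and of all members was wider in circSOD2-sh, where replicate 2 was highest.

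miR-23a-3p took up a far larger share of its cluster. Of the counts of the a cluster without miR-24-3p, it held 2.56%, 2.80%, 2.98% and 2.48% in NC replicates 1 to 4 and 34.9%, 38.4%, 36.8% and 36.3% in circSOD2-sh. The share of miR-27a-3p moved from 94.03% ± 0.388 to 59.7% ± 1.1 (SD, n = 4), and its ranges of 93.6% to 94.5% and 58.4% to 61.0% did not overlap. miR-27a-5p went from 0.851% ± 0.0865 to 2.26% ± 0.371, whereas miR-24-2-5p went from 2.09% ± 0.13 to 1.37% ± 0.088 and miR-23a-5p from 0.321% to 0.0365%. Apart from miR-23a-3p, then, only the passenger of miR-27a held a larger share of the a cluster in circSOD2-sh. On chromosome 9 the shift had the same direction at a smaller scale, with miR-23b-3p at 3.16% ± 0.256 in NC and 6.47% ± 0.514 in circSOD2-sh and miR-27b-3p at 96.5% ± 0.236 and 93.2% ± 0.504. These shares are not moved by the scaling of a library, as numerator and denominator come from the same counts. The groups overlapped only for the share of miR-23b-5p, 0.0262% and 0.0333%.

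**Figure D3:**
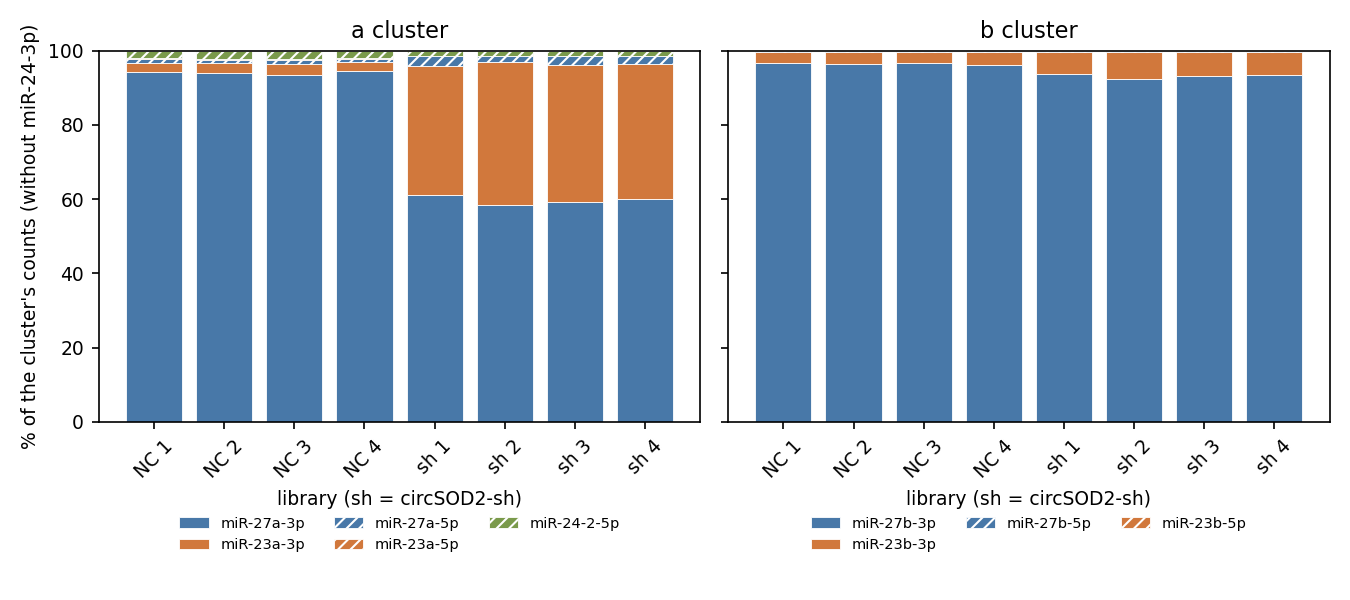
Percent of each cluster's counts, without miR-24-3p, held by each of its products in the 4 NC and 4 circSOD2-sh libraries, one bar per library; plain colours are guide arms and hatched ones passenger arms. In the a cluster miR-23a-3p widens from at most 2.98% to at least 34.9% and miR-27a-3p narrows, and in the b cluster miR-23b-3p widens from 3.16% to 6.47% on average.

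Ratios of counts within a library compare products of the same transcript directly. Per count of miR-23a-3p there were 36.8, 33.6, 31.4 and 38.04 counts of miR-27a-3p in NC and 1.75, 1.52, 1.61 and 1.65 in circSOD2-sh. The guides of adjoining hairpins thus went from a gap of over an order of magnitude to under 2 to 1. On chromosome 9 the same ratio of miR-27b-3p to miR-23b-3p was 30.7 ± 2.42 in NC and 14.5 ± 1.17 in circSOD2-sh (SD, n = 4; exact two-sided permutation p = 0.0286). In contrast, the ratio of miR-27a-3p to miR-24-2-5p, from the other pair of adjoining hairpins, was 47.3, 44.9, 41.2 and 47.3 in NC and 47.6, 43.4, 39.8 and 43.8 in circSOD2-sh. The groups overlapped, with means of 45.2 ± 2.87 and 43.6 ± 3.19 (exact two-sided permutation p = 0.486). Without miR-23a-3p, the other 4 products of the a cluster summed to 20421 ± 254 normalized CPM in NC and 13690 ± 1167 in circSOD2-sh, 1.49-fold lower after TMM but 1.18-fold higher by deposited CPM.

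The use of the arms was next compared within each hairpin, as log2 of 5p over 3p. A positive change means a shift towards the 5p, here the passenger, arm. The hairpins of miR-23a and miR-27a, which adjoin in the same transcript, shifted in opposite directions, miR-23a towards its guide and miR-27a towards its passenger. Of the 5 member hairpins, 4 passed an adjusted p of 0.05 in limma, against a background of 61.2% of 139 hairpins. In 2 of the 5, miR-23a and miR-27a, the arms themselves were called in opposite directions after TMM, against 20.1% of hairpins. For miR-27a this also held with RLE size factors and DESeq2 but not with library totals, where both of its arms were higher. Nor did it hold with the upper quartile or with limma on deposited CPM, where miR-27a-3p was not called. Among the 28 hairpins with opposite calls the 5p arm was the lower in 15 and the higher in 13. The median absolute change was 0.727 for the members and 0.685 for all hairpins.

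The log2 ratio of miR-23a-5p to miR-23a-3p was −3.12, −3.09, −3.18 and −2.87 in NC and −9.64, −10.3, −10.1 and −9.61 in circSOD2-sh. It was far lower in every circSOD2-sh library. The change of −6.84 (SE 0.18, adjusted p = 4.1e-09 in limma) ranked 5 by size among the 139 hairpins, and in counts the guide exceeded the passenger by 8.45 ± 0.77 to 1 in NC and by 1041 ± 252 to 1 in circSOD2-sh. For miR-27a the log2 ratio was −6.67, −6.70, −6.77 and −7.01 in NC and −4.50, −5.03, −4.69 and −4.72 in circSOD2-sh. Every circSOD2-sh library lay above every NC library. The change was 2.06 (SE 0.15, adjusted p = 1.38e-06 in limma), ranked 35, and the guide exceeded the passenger by 111 ± 12.5 to 1 in NC and by 26.9 ± 4.18 to 1 in circSOD2-sh.

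For miR-24-2-5p over miR-24-3p the log2 ratio was −1.37, −1.26, −0.99 and −1.47 in NC and −1.79, −1.55, −1.86 and −1.66 in circSOD2-sh, the 3p arm being shared with the chromosome 9 locus. The groups were close but did not overlap. The change of −0.44 (SE 0.14, adjusted p = 0.0232 in limma) lost its call without NC replicate 2 (−0.44, adjusted p = 0.052), NC replicate 3 (−0.35, adjusted p = 0.0652), circSOD2-sh replicate 1 (−0.42, adjusted p = 0.0615) or circSOD2-sh replicate 3 (−0.39, adjusted p = 0.0647), and with the replicate number as a replicate block (adjusted p = 0.0573). For miR-27b the log2 ratio was −8.11, −8.12, −7.96 and −8.13 in NC and −8.36, −8.44, −8.51 and −8.50 in circSOD2-sh, a change of −0.37 (SE 0.11, adjusted p = 0.0138 in limma; 0.0525 with the replicate block) with no overlap. For miR-23b it was −6.14, −6.77, −6.52 and −7.39 in NC and −7.43, −8.09, −7.36 and −6.85 in circSOD2-sh. These overlapped, and the change of −0.73 (SE 0.32, adjusted p = 0.0723 in limma; exact permutation p = 0.0857) passed only without NC replicate 4 (−0.95, adjusted p = 0.0169), without circSOD2-sh replicate 4 (−0.90, adjusted p = 0.0373), without NC replicate 4 and circSOD2-sh replicate 2 together (−0.72, adjusted p = 0.0272), with an added constant of 2 (−0.81, adjusted p = 0.0119) or with library totals (−0.88, adjusted p = 0.0319). Both b hairpins thus had changes of the same sign, unlike miR-23a and miR-27a, and that of miR-23b did not pass.

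**Figure D4:**
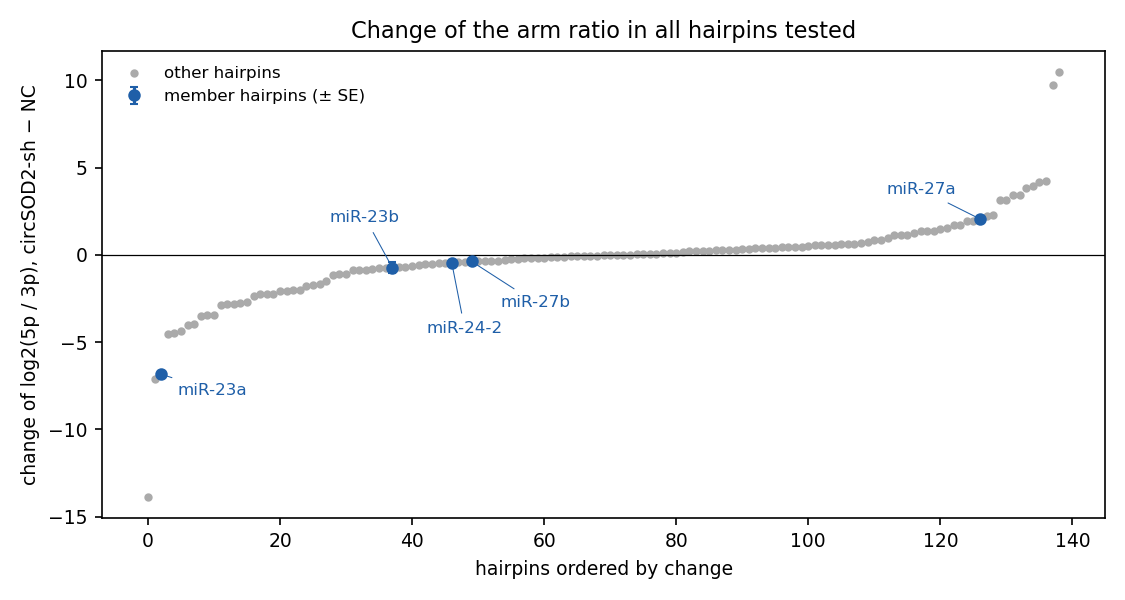
Change of log2 of 5p over 3p (circSOD2-sh minus NC) in 139 hairpins ordered by change, grey points being other hairpins and blue points the 5 member hairpins with SE. miR-23a, at −6.84, lies near the low end and miR-27a, at 2.06, towards the high end, whereas miR-23b, miR-24-2 and miR-27b lie between −0.73 and −0.37.

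The paralogous loci were compared through the log2 ratio of each a product to its b counterpart in the same library. All 4 pairs changed, and again with opposed signs, in that the a copy gained on the b copy for the miR-23 guide and the miR-27 passenger and lost ground for the miR-23 passenger and the miR-27 guide. All 4 passed an adjusted p of 0.05 in limma, against a background of 55.1% of 49 a/b pairs in the table. The median absolute change was 2.35 for the 4 pairs and 0.458 over all 49, of which 5 exceeded 2.

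For the miR-23 guides the log2 ratio of a to b was 0.95, 0.94, 1.08 and 0.56 in NC and 3.61, 3.74, 3.71 and 3.66 in circSOD2-sh. On the linear scale the mean ratio was 1.84 in NC and 12.8 in circSOD2-sh. The change of 2.80 (SE 0.11, adjusted p = 1.2e-06 in limma) was the highest of the 49 pairs. For the miR-27 guides it was 1.15, 1.07, 1.02 and 1.04 in NC and 0.47, 0.66, 0.55 and 0.46 in circSOD2-sh. The a copy remained the more abundant in all 8 libraries, with a mean a to b ratio of 2.10 in NC against 1.45 in circSOD2-sh. The change was −0.53 (SE 0.054, adjusted p = 0.00017 in limma).

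For the miR-23 passengers the log2 ratio was 3.97, 4.62, 4.42 and 5.09 in NC and 1.40, 1.53, 1.02 and 0.90 in circSOD2-sh. The SD was 0.46 in NC and 0.30 in circSOD2-sh, and miR-23b-5p had few counts in either group. The change was −3.31 (SE 0.26, adjusted p = 4.8e-05 in limma). For the miR-27 passengers the log2 ratio was 2.59, 2.49, 2.21 and 2.15 in NC and 4.33, 4.07, 4.37 and 4.25 in circSOD2-sh, a change of 1.90 (SE 0.12, adjusted p = 1.8e-05 in limma). The passengers differ at several bases, so the uncertainty over near-identical copies bears on the guides and much less on these pairs.

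**Figure D5:**
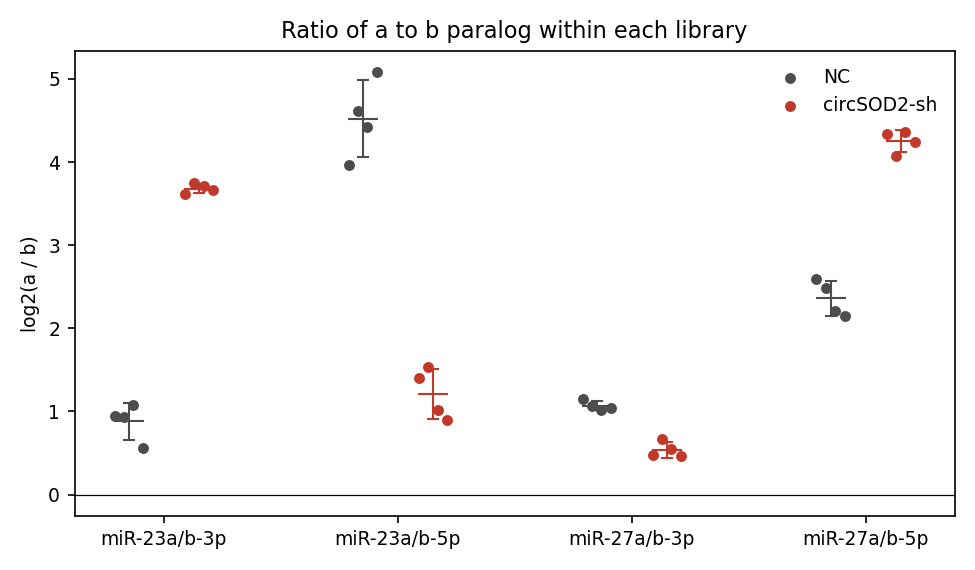
Log2 ratio of the a to the b copy within each library for the guide and passenger arms of miR-23 and miR-27, with 4 NC and 4 circSOD2-sh libraries as points and mean and SD as bars. The miR-23 guide ratio moves from 0.88 to 3.68 and the miR-27 passenger ratio from 2.36 to 4.26, whereas the miR-23 passenger and miR-27 guide ratios move down.

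Other products of the loci and their nearest relatives were few. MIR3074 lies on the minus strand of chromosome 9 over MIR24-1, at 95086014 to 95086094, and its 5p arm is complementary to miR-24-3p over 20 bases. hsa-miR-3074-5p was at 13.3, 14.2, 12.3 and 11.7 normalized CPM in NC and at 9.52, 7.42, 7.42 and 5.87 in circSOD2-sh, with a log2 fold change of −0.77 (adjusted p = 0.00326 in edgeR) after TMM, 0.20 with library totals and 0.067 with the upper quartile. Its 3p arm ranged from 6.47 to 9.21 in NC and from 5.83 to 10.0 in circSOD2-sh (log2 fold change 0.052, adjusted p = 0.818 in edgeR). This 3p arm was called higher with library totals (1.03, adjusted p = 0.00135 in edgeR) and the upper quartile (0.90, adjusted p = 0.00298). hsa-miR-23c, which carries the miR-23 guide seed on the X chromosome, had 0, 3, 1 and 5 counts in NC and 15, 16, 11 and 17 in circSOD2-sh (adjusted p = 0.00164 in edgeR), and no fold is given since 3 of 4 libraries of NC did not exceed the floor of 3 counts. All 3 miRNAs with this seed were thus called higher in circSOD2-sh, although reads of the far more abundant miR-23a-3p could be counted for miR-23b-3p or miR-23c, which was not tested.

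The miR-181c and miR-181d hairpins lie near the a cluster on chromosome 19. hsa-miR-181c-5p was not called (log2 fold change 0.26, adjusted p = 0.598 in edgeR), with 30.2 normalized CPM in circSOD2-sh replicate 2 against 7.31 to 9.43 in the rest of its group and 10.6 to 13.6 in NC, so that apart from that library circSOD2-sh lay below NC. With library totals it was called higher (1.21, adjusted p = 0.0176). After TMM hsa-miR-181c-3p was at −0.51 (adjusted p = 0.00142 in edgeR) and hsa-miR-181d-5p at −0.40 (adjusted p = 0.0202), which turned to 0.46 and 0.56 with library totals and to 0.33 and 0.43 with the upper quartile, while miR-181d-3p had too few counts to be tested. hsa-miR-128-3p, whose seed is that of miR-27 moved by 1 base, was not called (log2 fold change 0.17, adjusted p = 0.509 in edgeR) and stood at 899 in circSOD2-sh replicate 2 against 437 to 458 in the rest of its group and 478 to 516 in NC, so that the same holds, and with library totals it was called higher (1.13, adjusted p = 0.000493). None of these neighbours showed a change on the scale of miR-23a-3p.

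Other polycistronic clusters with paralogs served for comparison. The guides of the a cluster spanned 4.42 log2 units from the lowest to the highest fold change and those of the b cluster 1.08. By comparison the 6 guides of the cluster from miR-17 to miR-92a spanned 1.93, with 3 called higher and 0 lower by edgeR after TMM, the 3 guides of the cluster from miR-106b to miR-25 ran from 0.066 to 0.44 with 1 called higher, and miR-221-3p and miR-222-3p ran from −0.43 to −0.078 with 1 called lower, within the shift between scalings. Passenger arms spread over 4.54 log2 units in the a cluster and 0.758 in the b cluster, beside −2.89 to 2.12 for miR-17 to miR-92a, −0.39 to 7.36 for miR-106b to miR-25 and −0.19 to 0.12 for miR-221-5p and miR-222-5p. The spread among passengers thus varied between clusters, and the differences in span were not tested.

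Among 134 known miRNAs with a mean of at least 100 normalized CPM, the profile over the 8 libraries most like that of miR-23a-3p was that of hsa-miR-339-5p, with a root mean square difference of 0.185 log2 units, followed by hsa-miR-30c-5p at 0.40 and hsa-miR-362-5p at 0.401. In NC hsa-miR-339-5p and hsa-miR-362-5p had means of 32.8 and 35.3 normalized CPM, against 449 and 289 in circSOD2-sh. They passed the minimum only through circSOD2-sh, so the filter partly set their likeness to a miRNA that rose. For miR-27a-3p the nearest were hsa-let-7e-5p at 0.0553, hsa-miR-16-5p at 0.0572 and hsa-miR-15a-5p at 0.0742. For miR-24-3p they were hsa-miR-28-5p at 0.0933, hsa-miR-378a-3p at 0.142 and miR-27b-3p, a member from chromosome 9, at 0.152. Neither miR-27a-3p nor any other member was among the 3 nearest to miR-23a-3p.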

How the data were processed

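Small RNA libraries of 4 NC and 4 circSOD2-sh samples of 786-O cells were analysed from the deposited counts per miRNA, and the deposited CPM, computed by the authors over larger library totals, served as an alternative. A deposited comparison file with fold changes, p-values and group means was not used. The submitters' processing notes name FastQC 0.11.2, Trimmomatic 0.36, Bowtie 1.1.1 and GRCh38; miRNA annotation and counting tool are not given in the sources used here. Levels of all 895 miRNAs past filterByExpr (minimum count 10) were compared by the edgeR 4.0.16 quasi-likelihood test with TMM factors (R 4.3.3, prior count 0.125). The SE of an edgeR log2 fold change was derived as its absolute value divided by the square root of the F statistic. Ratios of arms and of a/b pairs, with 0.5 added to normalized CPM, were compared by limma 3.58.1. P-values were adjusted by Benjamini-Hochberg over all features, with 0.05 as threshold. For levels and sums the exact permutation tests, two-sided, took log2 of normalized CPM plus 1. The main fits of levels, arm ratios and a/b ratios were tested on simulated data. Alternatives were DESeq2 1.42.0, other scalings, filters and constants, limma on deposited CPM, a replicate block, libraries left out, summed guides, and identical pairs left out. Tables and figures used Python 3.11.15, pandas 2.3.3, numpy 2.4.6, scipy 1.17.1 and matplotlib 3.10.9. Named miRNAs were the members, other products of both loci, neighbours and seed relatives, guides of 3 like clusters, markers, and for likeness the 3 nearest profiles. Members and lists were chosen with earlier results of these data known.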

Additional observations from a re-analysis of the deposited data

Results flagged for a closer look

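A library far from the other 3 of its group, by Dixon's criterion, was found in 13 of 74 groups of 4 libraries. About 1 in 20 groups, or 3.7, would be expected by chance if the groups were independent and chosen without these data. They share the same libraries, and the lists were chosen with earlier results known, so no excess beyond chance can be read from this. Of the 13, 7 concerned circSOD2-sh replicate 2, 5 NC replicate 4 and 1 NC replicate 3. Among the members, the log2 ratio of miR-27b-5p to miR-27b-3p stood at −7.96 in NC replicate 3, the rest of the group spanning −8.13 to −8.11.

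Of the relatives, hsa-miR-181c-5p stood at 30.2 normalized CPM in circSOD2-sh replicate 2 against 7.31 to 9.43, and hsa-miR-128-3p at 898.5 against 437 to 458. The remainder were summed marker miRNAs in normalized CPM. Endothelial markers were at 651 in NC replicate 4 against 334 to 348, and at 511 in circSOD2-sh replicate 2 against 262 to 290.3. Kidney tubule markers were at 1046 in NC replicate 4 against 362 to 389, and at 339.9 in circSOD2-sh replicate 2 against 291 to 299. Fibroblast and smooth muscle markers were at 537 in NC replicate 4 against 7.08 to 8.36, and at 219 in circSOD2-sh replicate 2 against 7.65 to 12.4. Leukocyte markers were at 17.1 in NC replicate 4 against 1.19 to 2.001, and at 14.7 in circSOD2-sh replicate 2 against 2.13 to 3.21. Erythroid markers were at 113 in NC replicate 4 against 8.19 to 23.5, and neuronal markers at 4069 in circSOD2-sh replicate 2 against 27.02 to 33.3. No level of a member was far from its group by this criterion.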

How the results depend on the processing

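Over single members, 162 of 192 values under other settings and 140 of 152 with a library left out kept their direction and side of the threshold. Of counts and shares, 61 of 90 under other settings stayed within 1.5-fold (counts) or 1 SD (shares), as did 64 of 64 with a library left out; among these, members called lower were 4 to 6 and member hairpins changed 3 to 5. Calls of miR-23a-3p, miR-23a-5p, miR-23b-3p, miR-27a-5p and all 4 a/b pairs held under every setting run for them. With library totals, upper quartile, limma on log2 CPM plus 1 and limma on log2 CPM plus 0.1, the members called higher were 9, 7, 7 and 7 (main 3) and those called lower 1 each (main 4). In the same order, all miRNAs called higher were 613, 570, 559 and 553 (main 298) and lower 158, 160, 163 and 163 (main 290). With known miRNAs only, 123 were higher and 123 lower of 463, and with a mean of at least 50 counts 149 were higher and 212 lower of 502. The same 4 settings turned the log2 fold change of miR-27a-3p to 0.35, 0.23, 0.21 and 0.21, of miR-27b-3p to 0.88, 0.76, 0.74 and 0.74, of miR-27b-5p to 0.50, 0.37, 0.35 and 0.36, of miR-24-3p to 0.85, 0.74, 0.70 and 0.70, and of miR-24-2-5p to 0.40, 0.28, 0.26 and 0.26, whereas RLE size factors and DESeq2 turned none; the cause was not tested. With one library left out in turn, miR-23b-5p ran from −0.061 to 0.45.

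Whether sample numbers mark pairs was not settled by correlations of levels centred within each group. Same-number libraries correlated at 0.26, −0.0994, 0.0964 and −0.174 over the 895 miRNAs. Libraries of different number ran from −0.241 (NC replicate 1 with circSOD2-sh replicate 2) to 0.264 (NC replicate 4 with circSOD2-sh replicate 2). With the number as a replicate block, 2 of 5 member hairpins kept a changed arm ratio (main 4), with adjusted p of 0.0573 for miR-24-2 and 0.0525 for miR-27b in limma. Of all 139 hairpins, 79 changed under this block (main 85). With a mean of at least 50 counts, 55 of 82 hairpins changed (main 85 of 139). As percents of all counts on known miRNAs, miR-23a-3p held 0.105 in NC and 1.15 in circSOD2-sh, miR-27a-3p 3.66 and 1.88, miR-23b-3p 0.0571 and 0.0896, and miR-27b-3p 1.74 and 1.29. Chosen after seeing the data, summing the a and b guides gave 3.29 for miR-23 and −0.42 for miR-27, and leaving out 3 a/b pairs with identical counts kept all 4 members' calls.

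Limits: 4 libraries a group, perhaps not separate cultures; a control group with a far smaller share of counts on known miRNAs; an unknown counting tool, so that reads of near-identical guides may be split unevenly; no molecular identifiers, so that floors cover counting error only; and 7 to 26 counts per library for miR-23b-5p.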
